A study of Mus musculus with 12 samples.

Results

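The Toll-like receptor genes are described here in bone marrow-derived macrophages (BMDM) exposed to interferon beta (IFNβ). They were taken from the deposited count matrix by name, as Tlr1, Tlr2, Tlr3, Tlr4, Tlr5, Tlr6, Tlr7, Tlr8, Tlr9 and Tlr13. These are 10 of the 56748 genes listed, and all 10 passed the filter on low counts, which 15033 genes passed. Tlr5 did so only through its libraries with IFNβ. The other mouse members of the family, Tlr11 and Tlr12, were read beside them.

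Toll-like receptors are membrane proteins that recognise conserved parts of microbes, and of damaged cells, through an ectodomain of leucine-rich repeats. TLR1, TLR2, TLR4, TLR5 and TLR6 act at the cell surface on lipids, lipopeptides and flagellin, while TLR3, TLR7, TLR8, TLR9 and TLR13 act in endosomes on nucleic acids. Both kinds signal through the adaptors MyD88 or TRIF to NF-κB and interferon regulatory factors. In macrophages they set off cytokine and type I interferon production, and type I interferon is known to raise the expression of some of them in turn.

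The study sequenced total RNA of M2-like BMDM from female wild-type C57BL/6J mice, with 3 libraries in each of 4 conditions. All cells were differentiated with M-CSF at 20 ng/mL, given IL4 at 10 ng/mL over 48 hours as polarization, and kept under their condition for a further 72 hours. The design text gives 3 mice per condition, and the sources used here do not say whether the conditions drew on the same mice. If libraries shared an animal or a culture, the p-values would measure a partly technical spread.

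The conditions were medium alone (untreated control), culture supernatant of YUMM5.2 eGFP cells (eGFP supernatant), culture supernatant of YUMM5.2 Ifnb1eGFP cells (Ifnb1eGFP supernatant) and recombinant IFNβ (rIFNβ). The donor line YUMM5.2 comes from a mouse melanoma, and its Ifnb1eGFP version was sorted after transduction. These cells carry a lentiviral insert that expresses Ifnb1 and eGFP under doxycycline (Dox). Both kinds of donor cells had received Dox at 1 µg/mL for 72 hours. The Ifnb1eGFP supernatant was set to 1500 pg/mL IFNβ by dilution, the eGFP supernatant was diluted by the same factor, and rIFNβ was given at an equivalent concentration. Supernatant, and any Dox carried over with it, cannot be told apart in this design, since the untreated and rIFNβ conditions had neither.

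Library totals ran from 31526004 to 45348410 counts. The macrophage genes Adgre1 and Csf1r were at 1484 to 1836 and 1023 to 1189 counts per 1000000 (CPM) in all 12 libraries. Other macrophage markers differed more between the supernatants, as given below. Of genes read as signs of IL4 polarization, Mrc1 was at 609 to 839 CPM and Retnla at 45.4 to 71.3 CPM, but Arg1 was at 0.208 to 0.877 CPM. That list has 7 genes, of which 6 were tested. In each IFNβ comparison 1 was called higher and 2 lower, so the list was not flat with IFNβ. Of all genes tested, 30.1% were higher and 25% lower between the supernatants, and 30.7% and 24.6% with rIFNβ. The 5 markers of plasmacytoid dendritic cells, which are known for high Tlr7 and Tlr9, summed to 1.56 to 1.70 CPM in untreated BMDM. The sums were 2.22 to 3.31 CPM with rIFNβ, 1.23 to 1.74 CPM with eGFP supernatant and 1.54 to 3.08 CPM with Ifnb1eGFP supernatant. Siglech was at 0 counts in every library but 1. Of these 5 markers 2 were tested, and none was called in either IFNβ comparison. The sums of some other marker lists were lower with IFNβ. Neutrophil markers summed to 4.28 to 5.72 CPM in libraries without IFNβ and 0.208 to 0.985 CPM with it, and the 1 gene of 6 that passed the filter on low counts was called lower in each IFNβ comparison. T and NK cell markers summed to 0.223 to 0.577 and 0 to 0.0593 CPM, and the 1 gene of 5 that was tested was called lower in each. That gene, Klrb1c, had 6 to 23 counts without IFNβ and 0 to 1 with it. It passed the filter only through the groups where it was high, so its calls are not independent of the fall. Conventional dendritic cell markers summed to 1.56 to 2.13 and 0.348 to 0.733 CPM, and of 2 genes tested 2 were called lower between the supernatants and 1 with rIFNβ. What part these cells had in the receptor levels was not tested. Mast cell markers summed to 0.303 to 1.01 CPM and melanoma markers to 0.223 to 0.81 CPM over all libraries, and the 1 gene tested of each list was not called in either IFNβ comparison. The library of eGFP supernatant replicate 2 stood apart from its group in interferon-stimulated genes. Its Irf7 level was 45.2 CPM against 11.02 and 6.63 CPM in the other libraries of the group, and the receptor results that use this group are given with and without it. In counts over all genes, replicates 1 and 2 of Ifnb1eGFP supernatant were the furthest apart within a group. Their chi-square per degree of freedom was 54.0, where the lowest of 12 such pairs was 5.34. Pathway genes are given from the fit of all 12 libraries only.

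The 10 genes lie on 7 chromosomes of GRCm39. Tlr1 and Tlr6 are neighbours on the minus strand of chromosome 5, at chr5:65082022-65090941 and chr5:65108704-65203497. Tlr8 and Tlr7 are neighbours on the minus strand of chromosome X, at chrX:166024184-166047325 and chrX:166086758-166113605. Tlr13 is also X-linked, at chrX:105186810-105204533 on the plus strand. The others are Tlr2 at chr3:83743576-83749074 (minus), Tlr4 at chr4:66745783-66849936 (plus), Tlr3 at chr8:45848702-45864117 (minus), Tlr9 at chr9:106099797-106104082 (plus) and Tlr5 at chr1:182782311-182805500 (plus). The counts of Tlr1 and Tlr6, a closely related pair, were not whole numbers in 11 of 12 libraries each. Those of Tlr3 were not whole in 5 libraries. RSEM gives such counts where reads match several genes. The counts do not say which genes share reads, so the split between Tlr1 and Tlr6, or with other genes, is uncertain. Tlr3, Tlr4 and Tlr6 overlap other annotated genes.

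Windows of 300 bases around RefSeq transcript starts were at hand for 8 of the 10 genes, as 10 windows, and each had 1 exact match in GRCm39. They were searched on both strands for the core of the interferon-stimulated response element (ISRE), GAAANNGAAA, and for the interferon gamma activated site (GAS), TTCNNNGAA. The ISRE core was found in 1 of the 10 windows, a Tlr6 window, and in 3.44% of 32851 windows of all genes. The GAS letters were found in 3 of the 10 windows, of Tlr1, Tlr6 and Tlr8, and in 8.3% of all windows. Beside the 10 genes, the window of Tlr11 held an ISRE core, GAAACTGAAA at base -122 from the start, and that of Tlr12 neither set of letters. The 250 bases upstream of the start are shown for Tlr3 and Tlr9, which had the largest rises under IFNβ and held neither set of letters, for Tlr8, with a GAS match, and for Tlr6, with overlapping ISRE matches. Sequences are RefSeq's, read 5′ to 3′ on the gene's strand, and capitals mark a match. A match is a description of letters, and no match says only that these letters are absent from the window.
Tlr3, chr8:45863418-45863667, minus strand: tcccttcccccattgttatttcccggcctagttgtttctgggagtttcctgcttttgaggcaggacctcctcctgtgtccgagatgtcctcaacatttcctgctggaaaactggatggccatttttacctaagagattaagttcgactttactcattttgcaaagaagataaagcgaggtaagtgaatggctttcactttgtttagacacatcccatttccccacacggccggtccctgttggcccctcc
Tlr9, chr9:106099547-106099796, plus strand: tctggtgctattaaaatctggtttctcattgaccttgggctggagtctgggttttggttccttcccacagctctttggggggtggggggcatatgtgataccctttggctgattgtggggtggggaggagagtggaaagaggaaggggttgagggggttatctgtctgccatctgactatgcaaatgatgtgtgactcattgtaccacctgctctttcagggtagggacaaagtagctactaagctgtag
Tlr8, chrX:166047326-166047575, minus strand: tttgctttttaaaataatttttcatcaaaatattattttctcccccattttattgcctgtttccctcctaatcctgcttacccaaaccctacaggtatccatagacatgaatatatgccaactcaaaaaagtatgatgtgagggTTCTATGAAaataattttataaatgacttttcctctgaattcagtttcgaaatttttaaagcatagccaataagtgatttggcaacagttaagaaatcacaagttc
Tlr6, chr5:65116510-65116759, minus strand: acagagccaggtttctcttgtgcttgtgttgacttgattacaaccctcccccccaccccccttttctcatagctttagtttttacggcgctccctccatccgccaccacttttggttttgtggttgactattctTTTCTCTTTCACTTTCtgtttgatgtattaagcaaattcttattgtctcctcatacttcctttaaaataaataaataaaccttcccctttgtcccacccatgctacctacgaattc
The Tlr6 window lies 86988 bases downstream of the start of the gene as annotated in GRCm39, and that of Tlr3 700 bases downstream. The stretches shown for Tlr8 and Tlr9 end at the base before the annotated gene start.

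In untreated BMDM, Tlr13 was the most abundant of the 10 genes and Tlr5 the least. Levels between genes were compared as CPM per kilobase of merged exons. Tlr13, whose protein senses bacterial ribosomal RNA and which humans lack, was at 126 ± 4.43 CPM per kilobase (SD, n = 3). Tlr8 followed at 29.7 ± 1.76, Tlr1 at 20.0 ± 1.01, Tlr4 at 13.3 ± 0.878 and Tlr7 at 12.54 ± 0.931 CPM per kilobase. Tlr4 and Tlr7 overlapped in range, and no other pair of neighbours in the order did. Tlr6 was at 5.37 ± 0.286, Tlr3 at 2.94 ± 0.0983, Tlr2 at 1.05 ± 0.108, Tlr9 at 0.765 ± 0.0798 and Tlr5 at 0.0164 ± 0.00192 CPM per kilobase. With the longest annotated transcript as the length, Tlr4 came to 22.7 ± 1.496 CPM per kilobase, beside Tlr1 at 22.2 ± 1.12. In the plot of levels per length, Tlr13 and Tlr8 lead in all conditions, and the middle of the order changes with IFNβ. With Ifnb1eGFP supernatant Tlr7 (54.8), Tlr4 (30.1) and Tlr3 (18.7) stood above Tlr1 (15.7 CPM per kilobase), and Tlr9 (4.99) overlapped Tlr6 (5.36).

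**Figure D1:**
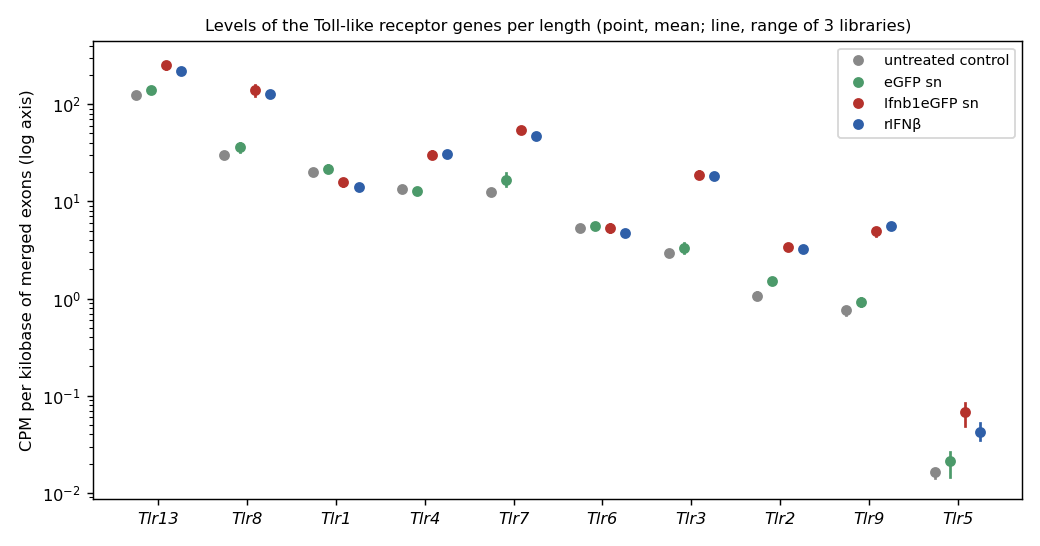
Level of each Toll-like receptor gene in CPM per kilobase of merged exons (log axis) in 4 conditions, as the mean of 3 libraries with a line for their range, ordered by the untreated control. Tlr13 is highest at 126 CPM per kilobase in untreated and 250 in Ifnb1eGFP supernatant BMDM, and Tlr5 lowest at 0.0164 and 0.0683.

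Both comparisons of IFNβ, from tumor cells or recombinant, showed higher levels of most of these genes. In BMDM treated with Ifnb1eGFP supernatant against eGFP supernatant, 8 of the 10 genes were higher, Tlr1 was lower and Tlr6 did not pass the test. In rIFNβ against untreated control, the same 8 were higher (Tlr2, Tlr3, Tlr4, Tlr5, Tlr7, Tlr8, Tlr9 and Tlr13), Tlr1 was lower and Tlr6 did not pass. Of these 8, Tlr5 passed the filter on low counts only through the libraries with IFNβ. Genes were called by edgeR's quasi-likelihood test with a Benjamini-Hochberg adjusted p of at most 0.05. Of all genes tested, 55.1% were called in the first comparison, 30.1% higher and 25% lower, and 55.3% in the second, 30.7% higher and 24.6% lower. The libraries of the compared groups did not overlap for 8 receptor genes that were higher in each comparison (32.4% and 36.4% of all genes tested), for Tlr1, lower, in the first (26.6%) and for Tlr1 and Tlr6, lower, in the second (29.7%). The median log2 fold change of the 10 genes was 1.45 and 1.48, beside 0.03 and 0.04 over all genes tested. The study's methods set stricter limits, with log2 fold changes of 2 or more in size and adjusted p up to 0.01. By these, Tlr3 and Tlr9 passed in the first comparison and Tlr3, Tlr8 and Tlr9 in the second. Of all genes tested, 5.39% passed these limits in the first comparison, 2.77% as higher, and 5.77% in the second, 2.99% as higher. In bulk RNA, a higher share of cells that express a gene and more RNA per cell cannot be told apart. The comparisons of rIFNβ and of eGFP supernatant with the untreated control share the control libraries, while both IFNβ comparisons share none.

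**Figure D2:**
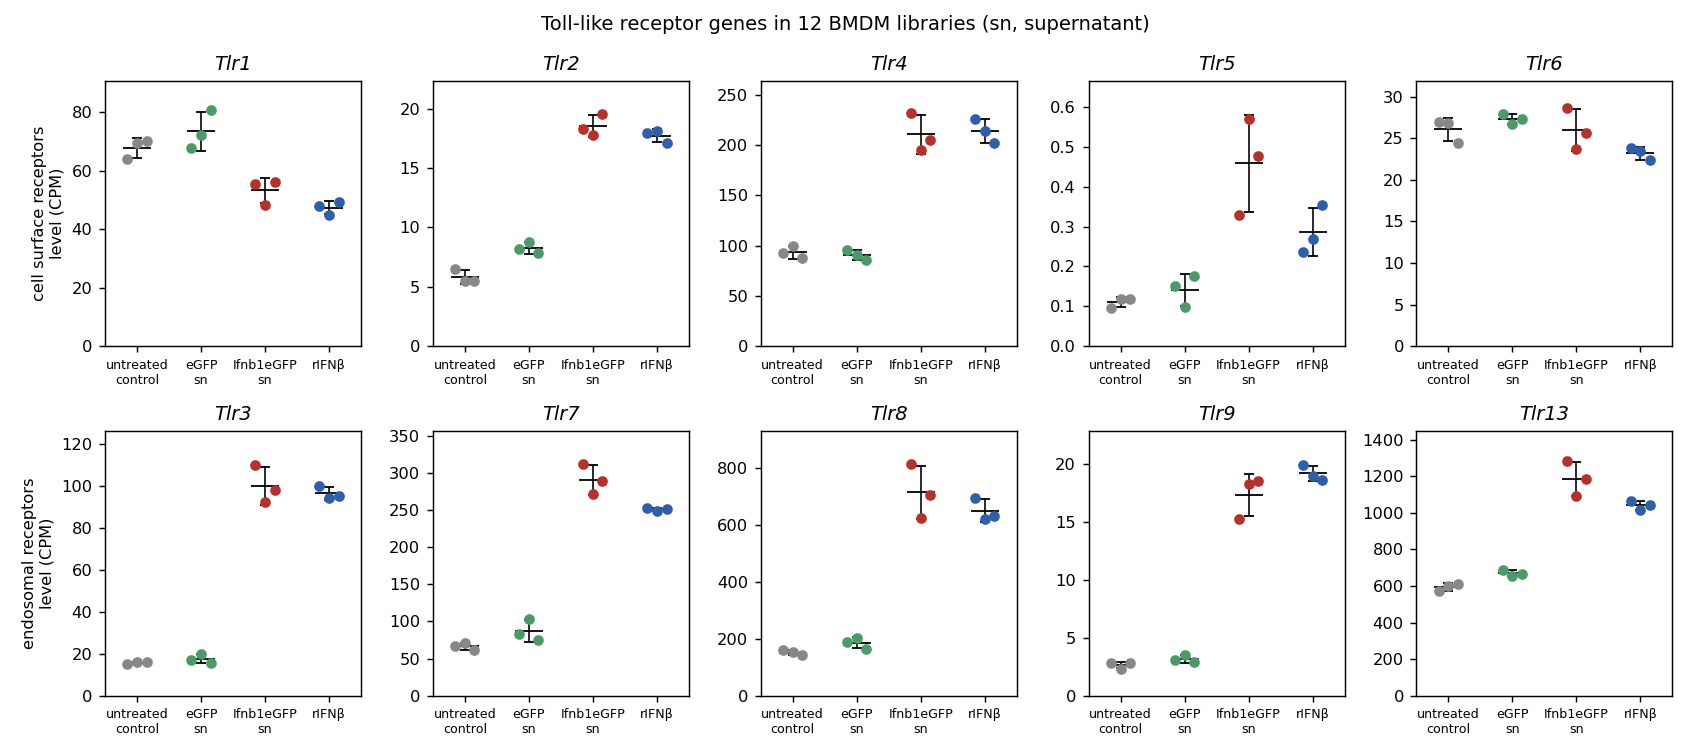
Level of each gene in CPM for every library (points) with the mean and SD of 3 libraries (bars), cell surface receptors above and endosomal receptors below, each axis starting at 0. The Tlr3 libraries with IFNβ sit between 92.5 and 110.1 CPM and those without between 15.1 and 20.1, whereas the Tlr6 libraries of all 4 conditions lie between 22.4 and 28.7.

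Among the endosomal receptors, Tlr3, whose protein binds long RNA duplexes of viruses, had the largest rise with Ifnb1eGFP supernatant. Its levels in replicates 1, 2 and 3, the order used throughout, were 15.1, 16.1 and 16.02 CPM in untreated and 17.3, 20.1 and 15.6 CPM in eGFP supernatant BMDM. They were 110.1, 92.5 and 97.9 CPM with Ifnb1eGFP supernatant and 100.2, 94.5 and 95.1 CPM with rIFNβ. No library without IFNβ reached the level of any library with it. The rise was 5.67-fold between the supernatants (log2 fold change 2.50 ± 0.09 SE, adjusted p = 1.83e-09) and 6.13-fold with rIFNβ (2.62 ± 0.09, adjusted p = 1.23e-09).

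Tlr9, which recognises unmethylated CpG DNA, was the least abundant endosomal receptor gene. It was at 2.83, 2.34 and 2.82 CPM in untreated and 3.11, 3.53 and 2.91 CPM in eGFP supernatant BMDM. With Ifnb1eGFP supernatant it was at 15.2, 18.3 and 18.5 CPM, and with rIFNβ at 19.9, 19.0 and 18.6 CPM. The groups with and without IFNβ were fully separate. Tlr9 rose 5.44-fold between the supernatants (log2 fold change 2.44 ± 0.10, adjusted p = 6.17e-09) and 7.19-fold with rIFNβ (2.85 ± 0.11, adjusted p = 2.2e-09), the largest rise of the 10 genes in that comparison.

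Tlr7 and Tlr8, the neighbouring X-linked genes, rose side by side. Tlr7, a receptor for guanosine-rich and uridine-rich RNA, was at 66.9, 71.2 and 61.3 CPM in untreated and 82.6, 103.0 and 75.4 CPM in eGFP supernatant BMDM. It was at 312, 271 and 289 CPM with Ifnb1eGFP supernatant and at 253, 249 and 251 CPM with rIFNβ. All 6 libraries with IFNβ were above all 6 without. The rises were 3.34-fold (log2 fold change 1.74 ± 0.10, adjusted p = 7.93e-08) and 3.78-fold (1.92 ± 0.10, adjusted p = 3.46e-08).

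Tlr8, whose human counterpart senses breakdown products of RNA, was at 159.8, 152 and 142 CPM in untreated and 190.2, 203 and 166 CPM in eGFP supernatant BMDM. It was at 812, 625 and 705 CPM with Ifnb1eGFP supernatant and at 696, 621 and 631 CPM with rIFNβ. Here too the groups with and without IFNβ did not overlap. The rises were 3.83-fold (log2 fold change 1.94 ± 0.10, adjusted p = 3.43e-08) and 4.30-fold (2.10 ± 0.10, adjusted p = 1.61e-08). Within each library the level of Tlr8 per length was 2.05 to 2.87 times that of Tlr7, with group means of 2.37 in untreated, 2.24 in eGFP supernatant, 2.55 in Ifnb1eGFP supernatant and 2.69 in rIFNβ BMDM.

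Tlr13 had the smallest rise of the endosomal receptors although it was the most abundant. It was at 571, 601 and 612 CPM in untreated, 687, 655 and 665 CPM in eGFP supernatant, 1282, 1091 and 1184 CPM in Ifnb1eGFP supernatant and 1066, 1017 and 1045 CPM in rIFNβ BMDM. The libraries with IFNβ were again all above those without. The rises were 1.77-fold (log2 fold change 0.82 ± 0.06, adjusted p = 2.86e-07) and 1.75-fold (0.81 ± 0.06, adjusted p = 2.94e-07). Tlr13 made up 59.4% ± 1.43 (SD, n = 3) of the summed level of the 10 genes per length in untreated and 46.7% ± 0.619 in rIFNβ BMDM, and 58.8% ± 1.81 and 47.8% ± 0.528 with eGFP and Ifnb1eGFP supernatant. The share of Tlr8 was 14.1% ± 1.01 in untreated and 27.0% ± 0.804 in rIFNβ BMDM, and 15.2% ± 1.24 and 26.7% ± 1.07 with the supernatants. These shares have no test of their own.

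The cell surface receptors moved in different directions. Tlr4, the receptor of lipopolysaccharide, was at 92.5, 99.7 and 87.5 CPM in untreated and 95.1, 90.9 and 85.4 CPM in eGFP supernatant BMDM. It was at 232, 195 and 205 CPM with Ifnb1eGFP supernatant and at 226, 214 and 203 CPM with rIFNβ. Every library with IFNβ was above every library without. Tlr4 rose 2.33-fold (log2 fold change 1.22 ± 0.08, adjusted p = 1.16e-07) and 2.30-fold (1.20 ± 0.08, adjusted p = 1.18e-07).

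Tlr2 pairs with Tlr1 to recognise triacylated lipopeptides and with Tlr6 to recognise diacylated ones, and the 3 genes did not move together. Tlr2 was at 6.49, 5.47 and 5.44 CPM in untreated, 8.19, 8.80 and 7.81 CPM in eGFP supernatant, 18.3, 17.8 and 19.6 CPM in Ifnb1eGFP supernatant and 17.9, 18.1 and 17.1 CPM in rIFNβ BMDM. The libraries with IFNβ were all above those without, and those with eGFP supernatant all above the untreated ones. Tlr2 rose 2.25-fold between the supernatants (log2 fold change 1.17 ± 0.08, adjusted p = 1.93e-07) and 3.06-fold with rIFNβ (1.61 ± 0.08, adjusted p = 1.71e-08).

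Tlr1 was the gene that fell. It was at 63.8, 69.4 and 70.0 CPM in untreated, 67.6, 72.1 and 80.6 CPM in eGFP supernatant, 55.4, 48.1 and 56.1 CPM in Ifnb1eGFP supernatant and 48.0, 44.9 and 49.2 CPM in rIFNβ BMDM. All libraries with IFNβ were below all libraries without. Tlr1 was 0.725 times as high in Ifnb1eGFP as in eGFP supernatant (log2 fold change -0.46 ± 0.08, adjusted p = 0.000325) and 0.699 times as high in rIFNβ as in untreated BMDM (-0.52 ± 0.08, adjusted p = 0.000149).

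Tlr6 stayed within a narrow range. It was at 27.0, 26.9 and 24.5 CPM in untreated, 27.9, 26.8 and 27.4 CPM in eGFP supernatant, 28.7, 23.8 and 25.6 CPM in Ifnb1eGFP supernatant and 23.8, 23.4 and 22.4 CPM in rIFNβ BMDM. The supernatant groups overlapped, at -0.07 ± 0.07 on the log2 scale (adjusted p = 0.402). Without Ifnb1eGFP supernatant replicate 1 this difference was -0.18 and passed (adjusted p = 0.0313). The rIFNβ libraries lay just below the untreated ones, with a log2 fold change of -0.17 ± 0.07 that missed the threshold (adjusted p = 0.0564). It passed in 7 of 18 alternative analyses, with adjusted p from 0.00806 to 0.167 over all 18. The 7 were DESeq2, RLE factors, the replicate block, the compared conditions only, and the fits without Ifnb1eGFP supernatant replicate 1 or 2 or control replicate 3.

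Tlr5, which recognises flagellin, was near the limit of detection. It had 3, 4 and 5 counts in untreated, 6, 4 and 7 in eGFP supernatant, 13, 23 and 22 in Ifnb1eGFP supernatant and 8, 12 and 14 in rIFNβ BMDM, at most 0.571 CPM. The groups with and without IFNβ did not overlap. Tlr5 passed the filter on low counts only through the libraries with IFNβ, so its tests are not independent of the rise. The fitted rises were 3.21-fold (log2 fold change 1.68 ± 0.32, adjusted p = 0.000968) and 2.55-fold (1.35 ± 0.36, adjusted p = 0.0079), with the widest errors of the 10 genes. With DESeq2 the second missed the threshold (adjusted p = 0.0588), the highest of 17 alternatives, which ranged from 0.00783.

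**Figure D3:**
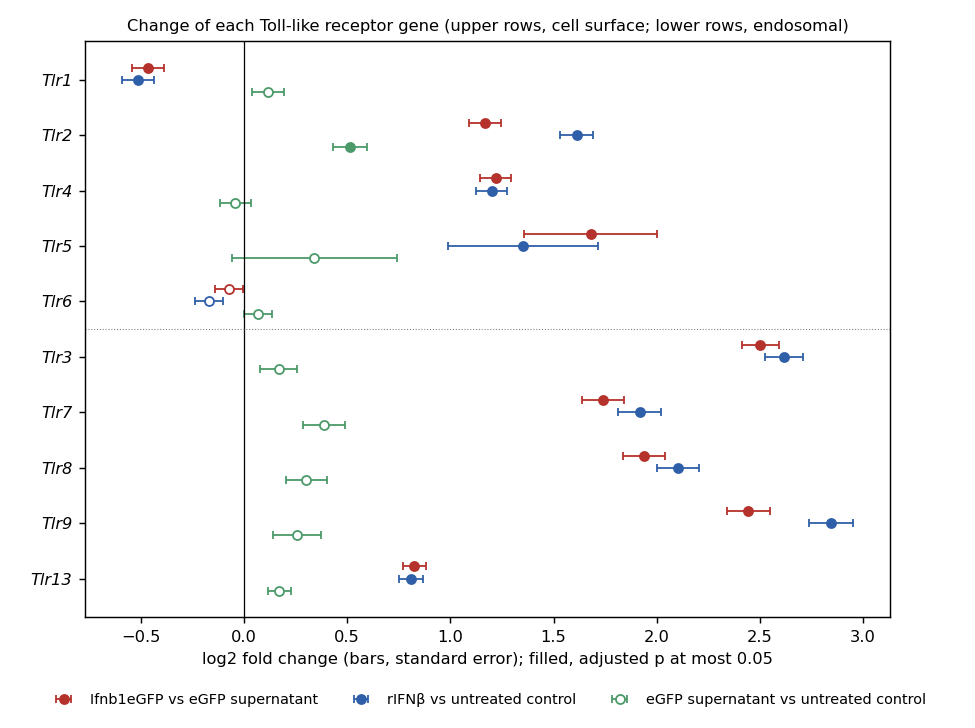
Log2 fold change of each gene in 3 comparisons with its standard error, filled where the adjusted p was at most 0.05 and open otherwise, cell surface receptors above the dotted line and endosomal receptors under it. Changes with IFNβ range from -0.52 (Tlr1) to 2.85 (Tlr9), while the changes with eGFP supernatant lie between -0.04 and 0.51 with Tlr2 alone filled.

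Leaving out eGFP supernatant replicate 2 gave log2 fold changes between the supernatants of 2.61 for Tlr3, 2.53 for Tlr9, 2.00 for Tlr8, 1.88 for Tlr7, 0.81 for Tlr13, 1.22 for Tlr4, 1.21 for Tlr2, 1.47 for Tlr5, -0.48 for Tlr1 and -0.09 for Tlr6. The same 9 genes were called without this library. Macrophage markers moved between the same groups. Their 7 genes summed to 17928 to 18457 CPM in eGFP supernatant and 10286 to 10581 CPM in Ifnb1eGFP supernatant BMDM. Of these 4 were called higher and 2 lower, beside 30.1% and 25% of all genes tested. Lyz2, the highest of the 7, was at 12092 to 12828 and 3905 to 4322 CPM, so the sum mostly follows it. Fcgr1 was at 63.6 to 112 and 1120 to 1294 CPM. Itgam was at 1612 to 1627 and 397 to 426 CPM, while Adgre1 was at 1484 to 1517 and 1648 to 1836 CPM. What part a change in macrophage state had in the receptor levels was not tested. Among B cell markers, Pax5 went from 0 to 1 counts to 12 to 16 counts, and Cd79b from 0.463 to 0.577 to 0.759 to 0.956 CPM.

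The proportions among the receptors also differed. The endosomal receptors made up 81.2% ± 0.329 (SD, n = 3) of the summed level of the 10 genes per length in untreated, 82.6% ± 0.886 in eGFP supernatant, 89.6% ± 0.148 in Ifnb1eGFP supernatant and 88.8% ± 0.174 in rIFNβ BMDM. With the longest transcript as length, the shares were 77.2%, 79.1%, 86.1% and 85.0%. The sum itself was 211 ± 4.08, 240.3 ± 5.46, 524 ± 47.9 and 471 ± 15.5 CPM per kilobase of merged exons. Tlr2 was the scarcer partner of both of its pairs in every library. Its level per length was 0.0529 ± 0.00829 of that of Tlr1 in untreated, 0.0697 ± 0.00877 in eGFP supernatant, 0.215 ± 0.0122 in Ifnb1eGFP supernatant and 0.230 ± 0.0171 in rIFNβ BMDM. Relative to Tlr6 it was 0.196 ± 0.0163, 0.267 ± 0.0205, 0.633 ± 0.0613 and 0.674 ± 0.00806. These ratios are of RNA and carry the uncertain split of reads that match Tlr1 or Tlr6.

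**Figure D4:**
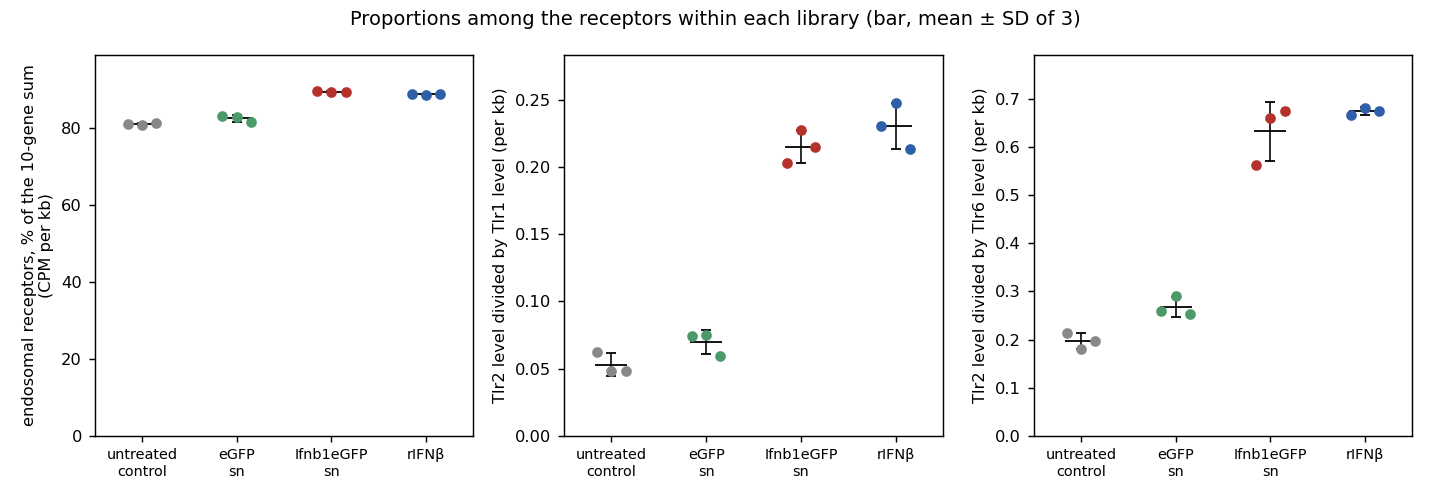
Share of the summed level per length of the 10 genes that came from the 5 endosomal receptors (left, percent), and the level of Tlr2 per length relative to Tlr1 (middle) and to Tlr6 (right), for every library with mean and SD of 3. The endosomal share was 80.8% to 83.2% in the 6 libraries without IFNβ and 88.7% to 89.7% in the 6 with it.

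Of the 10 genes, 1 was called between eGFP supernatant and untreated control. It was Tlr2, higher by 1.43-fold (log2 fold change 0.51 ± 0.08, adjusted p = 0.0251), where 0.299% of all genes tested were called, 0.246% as higher. The call on Tlr2 was lost without eGFP supernatant replicate 2 (0.47, adjusted p = 0.154) and in 6 other alternative analyses (without control replicate 2 or 3, eGFP supernatant replicate 1, or rIFNβ replicate 1 or 2, and with the compared conditions only), with adjusted p from 0.000259 to 0.154 over all 18. Tlr7 (log2 fold change 0.39 ± 0.10, adjusted p = 0.209), Tlr8 (0.30 ± 0.10, adjusted p = 0.358), Tlr9 (0.26 ± 0.12, adjusted p = 0.617) and Tlr13 (0.17 ± 0.06, adjusted p = 0.361) had groups that did not overlap, with eGFP supernatant above, but did not pass the test. In all, 7.96% of genes tested had such separate groups in this direction. Tlr7 passed with DESeq2 (adjusted p = 0.0253) and without a filter on low counts, with 0.558 as the highest of 18 alternatives. The library with high interferon-stimulated genes, eGFP supernatant replicate 2, was the highest of its group for Tlr2, Tlr3, Tlr7, Tlr8 and Tlr9, and without it the log2 fold changes were 0.06 for Tlr3, 0.25 for Tlr7, 0.24 for Tlr8 and 0.18 for Tlr9. Those of the other genes were then 0.13 for Tlr1, -0.05 for Tlr4, 0.55 for Tlr5, 0.08 for Tlr6 and 0.19 for Tlr13, and none of the 10 was called. Tlr3 (0.17 ± 0.09), Tlr1 (0.12 ± 0.08), Tlr6 (0.07 ± 0.07), Tlr4 (-0.04 ± 0.08) and Tlr5 (0.34 ± 0.40) had overlapping groups.

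Ifnb1eGFP supernatant and rIFNβ, which share the stated IFNβ concentration, were compared directly. They differ in the source of IFNβ, and also in supernatant and any Dox carried over with it. These cannot be told apart here. None of the 10 genes was called by edgeR's quasi-likelihood test, nor by DESeq2, where 0.16% of all genes tested were called by the former. At an unadjusted p under 0.05 there were 3, Tlr5, Tlr6 and Tlr13, and 8.57% of all genes tested. Tlr13 was 1.14-fold higher with the supernatant (log2 fold change 0.19 ± 0.06, adjusted p = 0.425), and it was called when Ifnb1eGFP supernatant replicate 2 was left out (0.24, adjusted p = 0.0326), the lowest of 18 alternatives, of which the highest was 0.941. The groups were also separate for Tlr7, higher with the supernatant (0.21 ± 0.10), and for Tlr9, lower with it (-0.14 ± 0.09), where 8.22% and 4.58% of all genes tested had such groups. The remaining differences were 0.67 ± 0.29 for Tlr5, 0.17 ± 0.08 for Tlr1, 0.17 ± 0.07 for Tlr6, 0.14 ± 0.10 for Tlr8, 0.07 ± 0.07 for Tlr2, 0.05 ± 0.08 for Tlr3 and -0.02 ± 0.07 for Tlr4.

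An interaction term tested whether the change with IFNβ differed in size between the setting of supernatant and that of plain medium. None of the 10 genes was called by edgeR's test or by DESeq2. The largest were those of Tlr2 (log2 difference of -0.45 ± 0.11, unadjusted p = 0.00188, adjusted p = 0.856) and Tlr9 (-0.40 ± 0.15, unadjusted p = 0.0201, adjusted p = 0.926), both with the smaller rise between the supernatants. They were the 2 genes with an unadjusted p under 0.05, which 4.4% of all genes tested had, and no gene of the whole table was called (0%). For the other 8 genes the log2 difference lay between -0.18 and 0.33. Without eGFP supernatant replicate 2 it was -0.40 for Tlr2 and -0.32 for Tlr9, between -0.10 and 0.12 for the others, and none was called.

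The remaining family members were near the limit of detection without IFNβ. Tlr11, a receptor for profilin of protozoa, had 1, 2 and 4 counts in untreated, 2, 2 and 0 in eGFP supernatant, 31, 37 and 43 in Ifnb1eGFP supernatant and 40, 34 and 37 in rIFNβ BMDM. Against a floor of 3 counts in each eGFP supernatant library it was at least 11.8-fold higher with Ifnb1eGFP supernatant (adjusted p = 7.56e-06). With rIFNβ its fitted log2 fold change was 3.83 ± 0.43 (adjusted p = 1.57e-05). Tlr11 passed the filter on low counts only through the libraries with IFNβ, so these p-values are not independent of the rise. Tlr12, its partner in profilin sensing, had 2 to 8 counts in libraries without IFNβ and 0 to 2 with it, and was not tested.

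The proteins that help these receptors bind ligands or leave the endoplasmic reticulum were read from a list of 12 genes, all tested. With Ifnb1eGFP supernatant, 6 were higher and 4 lower, with a median log2 fold change of 0.38, where 30.1% of all genes tested were higher and 25% lower. With rIFNβ, 7 were higher and 3 lower, with a median of 0.54, where 30.7% of all genes were higher and 24.6% lower. Ly86, which encodes the partner of the Tlr4-like protein CD180, had the largest rise of the list, from 24.2, 27.0 and 23.0 CPM to 228, 188 and 199.5 CPM between the supernatants (8.29-fold, adjusted p = 1.76e-09). Ly96, which encodes the subunit of the TLR4 complex that holds lipopolysaccharide, rose 2.08-fold (log2 fold change 1.06 ± 0.09, adjusted p = 1.84e-06), from 11.04, 10.1 and 9.69 CPM to 24.7, 19.2 and 20.3 CPM. The ratio of Ly96 to Tlr4 per length was 0.644 ± 0.0139 with eGFP and 0.574 ± 0.0244 with Ifnb1eGFP supernatant.

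Cd14, which hands lipopolysaccharide to that complex, fell while Tlr4 rose. It was at 279, 324 and 345 CPM with eGFP supernatant and 139.6, 215 and 198 CPM with Ifnb1eGFP supernatant (log2 fold change -0.78 ± 0.16, adjusted p = 0.00146), and fell by 0.96 on the log2 scale with rIFNβ (adjusted p = 0.000329). Per length there was 14.2 ± 2.23 times as much Cd14 as Tlr4 with eGFP supernatant and 3.60 ± 1.05 times with Ifnb1eGFP supernatant. With the longest transcript as length, the ratios were 8.81 ± 1.38 and 2.23 ± 0.653. Cd36, a scavenger receptor that passes lipids to TLR2 pairs, was at 7952 to 8659 CPM with eGFP supernatant and 3705 to 4335 CPM with Ifnb1eGFP supernatant (-1.06 ± 0.06, adjusted p = 8.19e-08). Unc93b1, the chaperone that carries endosomal receptors to endosomes, rose too. It was at 417, 431 and 334 CPM and at 452, 723 and 535 CPM (0.53 ± 0.15, adjusted p = 0.0095), and rose by 0.76 ± 0.15 with rIFNβ (adjusted p = 0.000995).

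Of 17 genes for endosomal proteases, nucleases and transporters, 10 were higher and 3 lower in each IFNβ comparison, with median log2 fold changes of 0.48 and 0.42. Over all genes tested 30.1% were higher and 25% lower between the supernatants, and 30.7% and 24.6% with rIFNβ. Trex1, an exonuclease that degrades DNA in the cytosol, rose from 18.6, 31.4 and 12.8 CPM to 104, 181 and 134 CPM between the supernatants (6.68-fold, adjusted p = 7.61e-06). Pld4, an exonuclease of endosomes that degrades single-stranded nucleic acids, rose from 97.5, 115.6 and 110.2 CPM to 558, 664 and 642 CPM (5.76-fold, adjusted p = 1.07e-09). Its relative Pld3 fell, from 1089, 1141 and 887 CPM to 420.2, 705 and 509 CPM (log2 fold change -0.93 ± 0.16, adjusted p = 0.000387). Ctsk, a cathepsin, fell by 1.80 on the log2 scale (adjusted p = 3.51e-07). The proteases Ctsl and Lgmn, which cut the ectodomains of endosomal receptors, rose in both IFNβ comparisons, Lgmn by 1.57 ± 0.05 and Ctsl by 0.48 ± 0.06 between the supernatants. Both were also higher in eGFP supernatant than in untreated control (Lgmn by 0.44 ± 0.05, adjusted p = 0.00552, and Ctsl by 0.48 ± 0.06, adjusted p = 0.00754).

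Of 22 adaptors and kinases, 15 were higher and 1 lower between the supernatants (median log2 fold change 0.31), and 14 were higher and 2 lower with rIFNβ (0.31). Beside these stand 30.1% higher and 25% lower of all genes tested, and 30.7% and 24.6% with rIFNβ. Myd88, the adaptor of nearly all of these receptors, was at 69.1, 74.3 and 61.7 CPM with eGFP supernatant and 119, 134.6 and 123 CPM with Ifnb1eGFP supernatant (1.83-fold, adjusted p = 6.93e-07). Ticam1, which encodes TRIF, the adaptor of TLR3, differed by 0.02 ± 0.07 on the log2 scale (adjusted p = 0.853). Pik3ap1, an adaptor that links the receptors to PI3K, had the largest rise, from 909.9, 1005 and 877 CPM to 2600, 2741 and 2642 CPM (2.86-fold, adjusted p = 1.03e-09). Peli1, an E3 ubiquitin ligase of the pathway, rose 1.97-fold (adjusted p = 7.71e-06). Ikbkg, the regulatory subunit of the IκB kinase, was the one that fell, from 106 to 114 CPM to 75.0 to 77.7 CPM (log2 fold change -0.54 ± 0.04, adjusted p = 4.09e-07).

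Of 12 transcription factors, 6 were higher and 1 lower between the supernatants, with a median log2 fold change of 0.28, and 8 were higher and 1 lower with rIFNβ, with a median of 0.31. Called in either direction were 7 of 12 between the supernatants, near the 55.1% of all genes tested, and 9 of 12 with rIFNβ, beside 55.3%. By direction, all genes tested were 30.1% higher and 25% lower between the supernatants, and 30.7% and 24.6% with rIFNβ. Irf7, the factor that drives interferon genes after endosomal TLR signals, went from 11.02, 45.2 and 6.63 CPM to 1333, 1695 and 1453 CPM (log2 fold change 6.15 ± 0.64, adjusted p = 8.39e-06). Its eGFP supernatant libraries were far apart, as described above for replicate 2. Irf1 rose 3.27-fold (adjusted p = 1.63e-06), and Atf3, a repressor of TLR target genes, fell by 0.32 on the log2 scale (adjusted p = 0.000322).

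Of 16 negative regulators, 8 were higher and 4 lower between the supernatants (median log2 fold change 0.44) and 8 were higher and 3 lower with rIFNβ (0.40). Over all genes tested 30.1% were higher and 25% lower between the supernatants, a share of lower calls like that of the list, and 30.7% and 24.6% with rIFNβ. Trim30a rose 7.67-fold (adjusted p = 1.48e-06) from 57.8, 111 and 49.6 CPM to 611, 498 and 563 CPM. Socs1, an inhibitor of cytokine and TLR signaling, rose 4.11-fold (adjusted p = 0.000304) from 0.226 to 0.429 CPM to 1.24 to 1.96 CPM. Tnfaip3, which encodes the deubiquitinase A20, fell from 95.7, 104.7 and 108.7 CPM to 32.5, 34.5 and 35.4 CPM (log2 fold change -1.59 ± 0.08, adjusted p = 1.79e-08). Tollip, which restrains IRAK kinases, fell by 0.47 on the log2 scale (adjusted p = 9e-06).

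Of 12 cytokine and other genes that TLR signals can raise, 8 were tested. Between the supernatants 5 were higher and none lower, with a median log2 fold change of 1.13, and with rIFNβ 4 were higher and none lower, with a median of 0.58. These shares of called genes were near the 55.1% and 55.3% of all genes tested. By direction, all genes tested were 30.1% higher and 25% lower between the supernatants, and 30.7% and 24.6% with rIFNβ. Il10, an anti-inflammatory cytokine, rose from 0.581, 0.609 and 0.502 CPM to 6.60, 7.003 and 7.43 CPM (12.4-fold, adjusted p = 8.31e-09). Ccl4, a chemokine, rose 2.79-fold (adjusted p = 2.39e-05). Tnf did not pass the test (0.53 ± 0.38, adjusted p = 0.262). Il6, Il12a, Il12b and Ifnb1 did not pass the filter on low counts, and the highest level of Il6 in any library was 0.202 CPM.

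**Figure D5:**
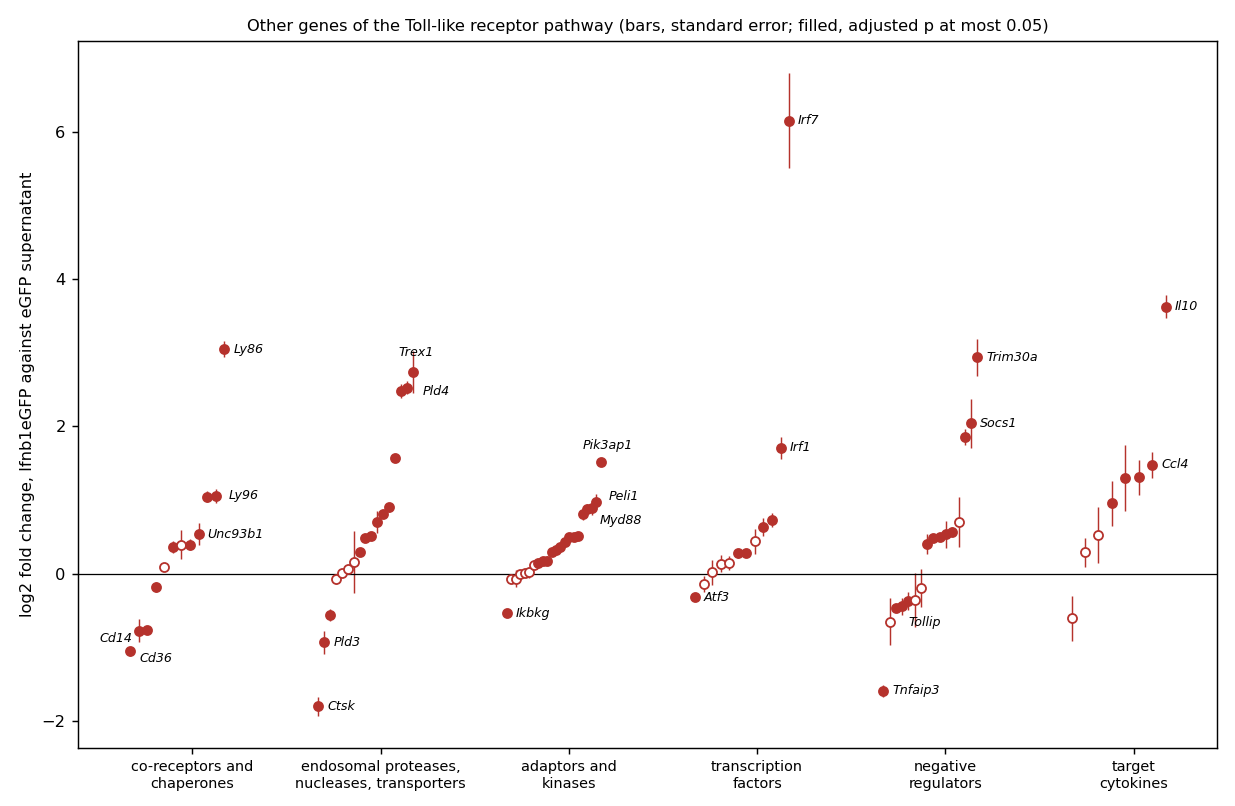
Log2 fold change between Ifnb1eGFP and eGFP supernatant of each tested gene in 6 lists of the Toll-like receptor pathway, with its standard error, filled where the adjusted p was at most 0.05, with the genes named by the rule labelled. Values run from -1.80 (Ctsk) to 6.15 (Irf7).

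The genes whose log2 CPM followed Tlr3 most closely over the 12 libraries were Tasl (Pearson's r = 0.9996), Nmi (0.999) and Arel1 (0.999). TASL is an adaptor of endosomal TLR signaling to IRF5, and its gene rose from 11.1, 12.3 and 9.61 CPM to 68.3, 55.5 and 60.0 CPM between the supernatants (5.57-fold, adjusted p = 2.98e-09). The closest to Tlr1 were mt-Nd2 (0.987), a mitochondrial gene, Gm28439 (0.985), a pseudogene, and Btg2 (0.983), a gene that slows cell growth. These coefficients describe libraries that share their grouping by IFNβ, and no test was made of them.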

How the data were processed

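Total RNA libraries (TruSeq Stranded) were counted by the authors with RSEM 1.3.3, and the deposited expected counts per Ensembl gene are neither normalized nor filtered. The sources name the reference as GRCm39 and mm10, which are 2 builds, and positions given here are those of GRCm39. All 12 columns were assigned by their sample descriptions. Expected counts were rounded, since 12% of values were not whole. In R 4.3.3, genes were filtered with filterByExpr of edgeR 4.0.16, TMM scaling was applied, and all 12 libraries entered 1 quasi-likelihood fit, with Benjamini-Hochberg adjustment over 15033 genes. The standard error was taken as the size of the log2 fold change divided by the square root of F. The fit was also run on counts simulated from its own model, with far fewer changed genes than here. That run cannot show how the fit does on these data. With 3 libraries against 3 an exact permutation test cannot go below p = 0.1, so no such test was run. Floors were 3 counts and cover counting error only. Promoter windows came from RefSeq (GRCm38.p6) and were matched to GRCm39.

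The genes and lists were chosen with earlier results of these data known. Named genes were every receptor, Unc93b1, Myd88, Cd14, Ly96 and Irf7, and, in each list, up to 2 rises and 2 falls of largest size called in both IFNβ comparisons, plus the 3 genes most correlated with the receptor of largest rise and of largest fall. Lgmn, Ctsl, Ticam1, Tnf, Il6, Il12a, Il12b, Ifnb1, Adgre1, Csf1r and the markers were chosen outside this rule, their values known. The alternatives tried were DESeq2 1.42.0, RLE factors, no filter, unrounded counts, the replicate block, only the compared conditions, a fold limit (log2 of 1 or more in size), and each library left out. Sample descriptions and the paper's methods differ on the culture time before IL4 and on the supplier of rIFNβ. One marker and the summed level of its list are not reported here.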

Additional observations from a re-analysis of the deposited data

How the results depend on the processing

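The 2 counts of receptor genes called with IFNβ stayed within 1.5 times of their values in all 19 alternatives each, and the largest adjusted p of Tlr1, Tlr2, Tlr3, Tlr4, Tlr7, Tlr8, Tlr9 and Tlr13 in them was 0.00501. For eGFP supernatant against untreated control, 1 receptor gene was called, against 2 with DESeq2, 2 with no filter, 0 with the compared conditions only, 0 with a log2 fold limit of 1, and 0 to 1 with a library left out. For Ifnb1eGFP supernatant against rIFNβ, 0 were called, and 0 to 1 with a library left out. The interaction gave 0 in all 18 alternatives. Over all genes, 45 were called with eGFP supernatant, against 204 with DESeq2, 22 with the compared conditions only, 75 with no filter and 16 to 76 with a library left out. For Ifnb1eGFP supernatant against rIFNβ, 24 were called, against 115, 2, 41 and 4 to 1051. The 1051 (194 higher, 857 lower) came without Ifnb1eGFP supernatant replicate 2. The causes were not tested.

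The replicate numbers were not used as pairs. Between same-numbered libraries, deviations from the group means correlated at 0.0582 to 0.252, and above 0.1 in 13 of 18 pairs. With the replicate block, 122 genes (89 higher, 33 lower) were called with eGFP supernatant and 48 (41 higher, 7 lower) for Ifnb1eGFP supernatant against rIFNβ, and Tlr6 was called lower with rIFNβ (adjusted p = 0.0325). Receptor genes called with the block numbered 1 with eGFP supernatant and 0 for Ifnb1eGFP supernatant against rIFNβ. The block changed no other call of a receptor gene. It was not run for the pathway genes one by one.

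Small differences changed sign. Without a filter the interaction was -0.0038 for Tlr4 and -0.0080 for Tlr13. With a library left out it was -0.0031 to 0.12 for Tlr1, -0.048 to 0.074 for Tlr4 and -0.038 to 0.072 for Tlr13. The log2 fold change of Tlr4 with eGFP supernatant was -0.087 to 0.0086. That of Ifnb1eGFP supernatant against rIFNβ was -0.016 to 0.11 for Tlr3 and -0.094 to 0.031 for Tlr4. With the longest transcript as length, 24 of 40 levels moved by more than 1 SD, most of all Tlr4, to 21.99 to 52.1 CPM per kilobase. Depth limits Tlr5, Tlr11 and Tlr12, which had few counts without IFNβ. Tlr5 was tested in 17 of 18 alternatives for rIFNβ.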
